A study of Mus musculus with 12 samples.

Results

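Luminal acidification and proton pump genes were followed along the mouse epididymis. The set holds 35 genes, picked by name for their function while earlier results of these data were known. It covers subunits and accessory proteins of the vacuolar proton pump (V-ATPase), the transcription factor Foxi1, carbonic anhydrases, sodium-hydrogen exchangers and bicarbonate or anion transporters. Of the 35 genes, 32 had at least 1 probe-set of their own among the 22180 genes measured, and each was read from its brightest probe-set over the 12 arrays. Atp6v0c and Slc4a7 had no probe-set of their own in the annotation used, and the probe-set of Car14 also carries Aph1a, so these 3 genes were not analysed here.

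Total RNA of the corpus and the cauda epididymis came from control mice, Dicer1fl/fl, and from Dicer1 conditional knockout (cKO) mice, Defb41iCre/wt;Dicer1fl/fl, both on a mix of C57Bl/6N and SV129. The 4 groups had 3 arrays each, 12 in all. Both genotypes carry the floxed Dicer1 alleles, and only the cKO carries Cre, which the Defb41 promoter drives in principal cells of the proximal duct (initial segment and caput), upstream of both regions measured. The paired tissues of a mouse were pooled, the age of the mice is not given with the samples, and nothing says which corpus and cauda arrays share a mouse.

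Values are log2 intensities per probe-set from Mouse Gene 2.0 ST arrays, on which 1 unit is a doubling. Array medians lay between 5.19 and 5.31, and Pearson correlations between arrays were 0.970 to 0.985 within groups over all probe-sets. Dicer1 itself lay between 7.37 and 7.65 on the 6 corpus arrays. In the cauda it lay between 7.51 and 7.64 on control arrays and between 7.71 and 7.77 on cKO arrays. These values check no label because the deletion takes place upstream. The position marker Hoxd10 was between 5.66 and 6.38 on corpus arrays and between 8.49 and 8.94 on cauda arrays, as the labels have them. Corpus cKO replicate 3 stood apart from the other arrays of its group in many of the genes below. Many of the results that change without it are also given without it. It was singled out from these same values, so the p-values without it only describe how far the results rest on it.

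The lumen of the epididymis is kept acidic and low in bicarbonate, which holds sperm quiescent while they mature and are stored. Clear cells pump protons into the lumen through a V-ATPase in their apical membrane, fed with protons that cytosolic carbonic anhydrase makes from carbon dioxide and water. Principal cells take part through sodium-hydrogen exchange, membrane-bound carbonic anhydrases and bicarbonate transport. In tissue RNA of this kind, fewer cells of a type and less RNA per cell cannot be told apart.

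Corpus and cauda of control mice were compared first, to see how the acid-base genes are laid out along the duct. Of the 32 genes, 1 was higher and 3 were lower in the cauda at an adjusted p under 0.05 from limma, which moderates each probe-set's variance by that of all others and adjusts over all 41345 probe-sets. Among all probe-sets 1.77% were higher and 1.75% lower. The 3 that fell were carbonic anhydrases, out of 4 of the set that were measured, and the 1 that rose was the pump accessory protein Atp6ap2. Among the carbonic anhydrases of the further genes given below, only Car5b passed, and it was lower too. In cKO mice 2 genes were higher and 2 lower, beside 1.64% and 1.05% of all probe-sets. The median log2 difference of the 32 genes was -0.12 in control and -0.07 in cKO mice, and that of all probe-sets was -0.01 and 0.01. In control mice all cauda arrays lay above all corpus arrays for 6 genes and below them for 11, beside 10.2% and 11.8% of all probe-sets. In cKO mice they did for 6 and 5, beside 9.75% and 8.45%.

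**Figure D1:**
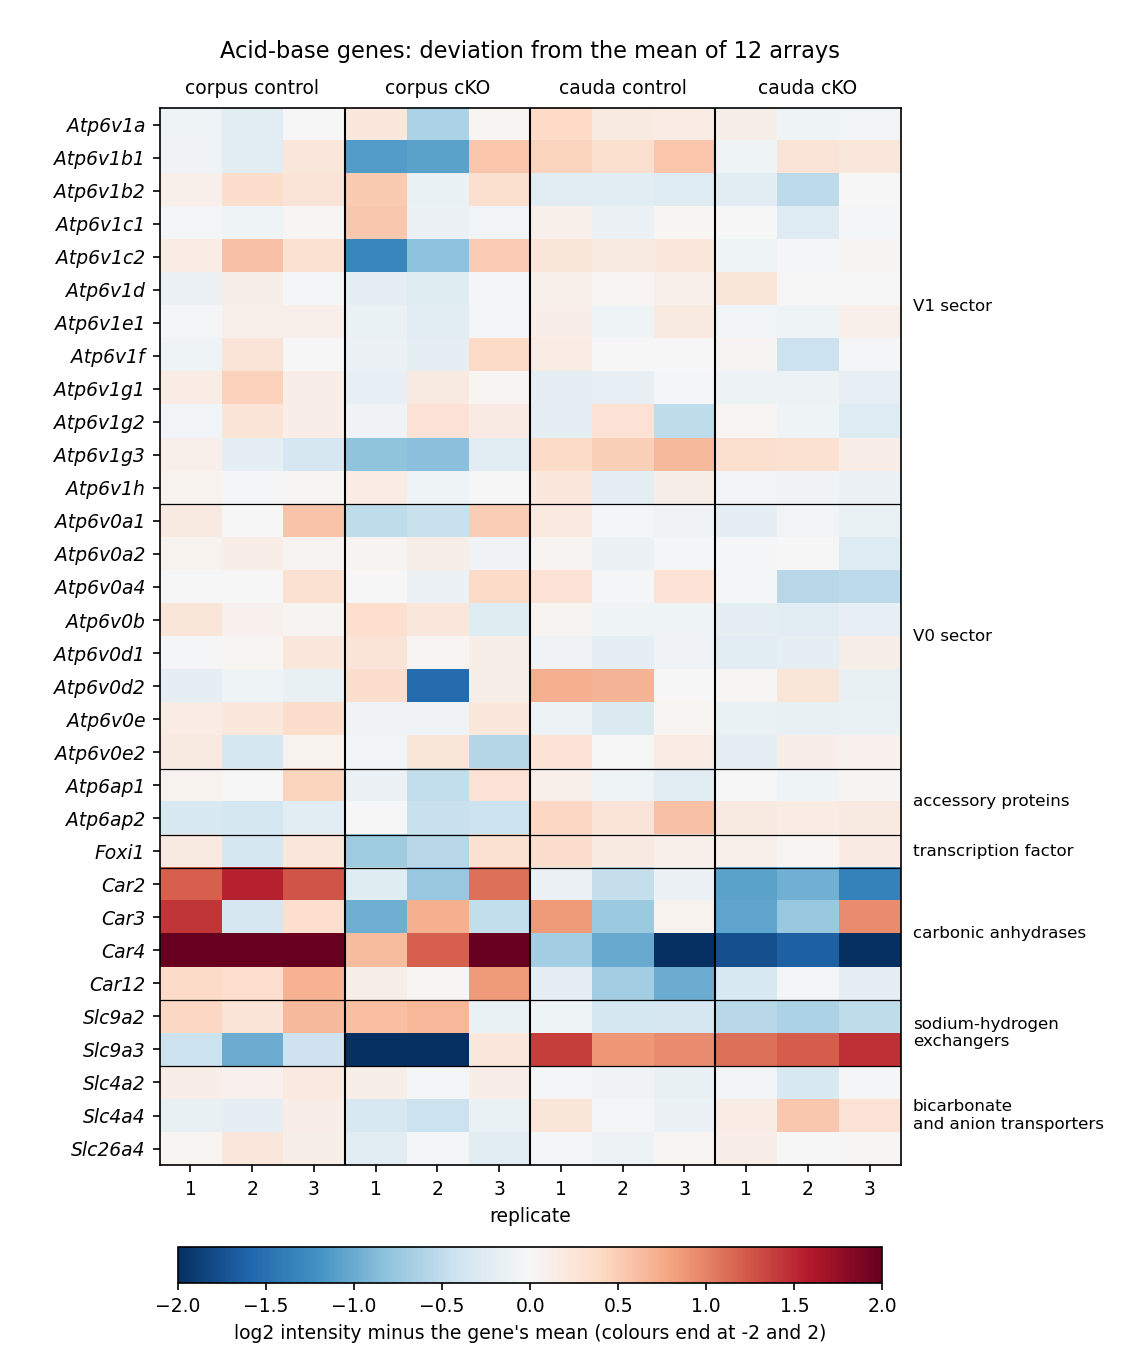
Heat map of the 32 measured acid-base genes (rows, grouped by role) on the 12 arrays (columns, 3 replicates for each region and genotype). Colour is the log2 intensity minus the gene's mean over all arrays. Car4, Car2 and Slc9a3 part corpus from cauda within each genotype, and Atp6v1b1, Atp6v1c2 and Slc9a3 are low on corpus cKO replicates 1 and 2 but not on replicate 3.

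Car4, the carbonic anhydrase anchored by a lipid to the outer face of the apical membrane, had the steepest step along the duct among the 32 genes. Its log2 intensity was 11.26, 11.36 and 11.48 in the control corpus and 8.39, 8.07 and 6.27 in the control cauda. Every corpus array was above every cauda array, a 13.8-fold difference (log2 difference -3.79, standard error 0.57, limma adjusted p = 0.00428). In cKO mice it was 9.70, 10.27 and 11.33 in the corpus and 7.31, 7.44 and 6.00 in the cauda, an 11.4-fold difference (-3.51, standard error 0.57, adjusted p = 0.00661 from limma). Cauda replicate 3 of either genotype gave the lowest Car4 of its group, and without that of the control the difference in control mice was -3.14 (limma adjusted p = 0.01). On the same arrays the 15 measured of 17 epithelial markers averaged 8.29 and 7.98, beside 9.16 to 9.76 on the other cauda arrays. These markers did not move as one. The secretory gene Lcn9 read 5.98 and 4.41, beside 9.05 to 10.28 on the other cauda arrays. The keratins Krt8 (9.92 and 9.71) and Krt18 (10.69 and 10.59) lay within or above the other cauda arrays. The part of this in the Car4 values was not tested.

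Car2, the fast cytosolic carbonic anhydrase found in clear and narrow cells, read 11.00, 11.35 and 11.07 in the control corpus and 9.69, 9.34 and 9.70 in the control cauda. The groups did not overlap, and the cauda was 2.95-fold lower (log2 difference -1.56, standard error 0.37, limma adjusted p = 0.0409). In cKO mice the corpus gave 9.57, 9.05 and 10.91 and the cauda 8.74, 8.86 and 8.46, again without overlap but with an adjusted p of 0.155 from limma (log2 difference -1.16, 95% interval -1.96 to -0.36, and -0.62 without corpus cKO replicate 3). Car12, a carbonic anhydrase that spans the membrane with its catalytic side outward, read 8.14, 8.10 and 8.46 in the control corpus and 7.56, 7.07 and 6.76 in the control cauda. All corpus arrays were higher (log2 difference -1.10, standard error 0.25, limma adjusted p = 0.0328). In the cKO, Car12 read 7.88, 7.79 and 8.61 in the corpus and 7.45, 7.73 and 7.56 in the cauda, and the difference of -0.52 did not pass (95% interval -1.06 to 0.02, adjusted p = 0.418 from limma).

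Car3, a cytosolic form of low activity that is abundant in fat and muscle, varied more between the mice of a group than between groups. It read 11.95, 10.18 and 10.85 in the control corpus, 9.53, 11.23 and 10.01 in the cKO corpus, 11.37, 9.78 and 10.58 in the control cauda and 9.46, 9.76 and 11.45 in the cKO cauda. The array with the highest Car3 was in each of the 4 groups also the one with the highest Adipoq, a hormone of fat cells, although in the control cauda Adipoq was 6.20 on replicates 1 and 3 alike. Over the 9 measured of 10 fat cell markers the mean ran from 6.96 to 8.29 across the 12 arrays. The part of fat in the Car3 values was not tested.

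**Figure D2:**
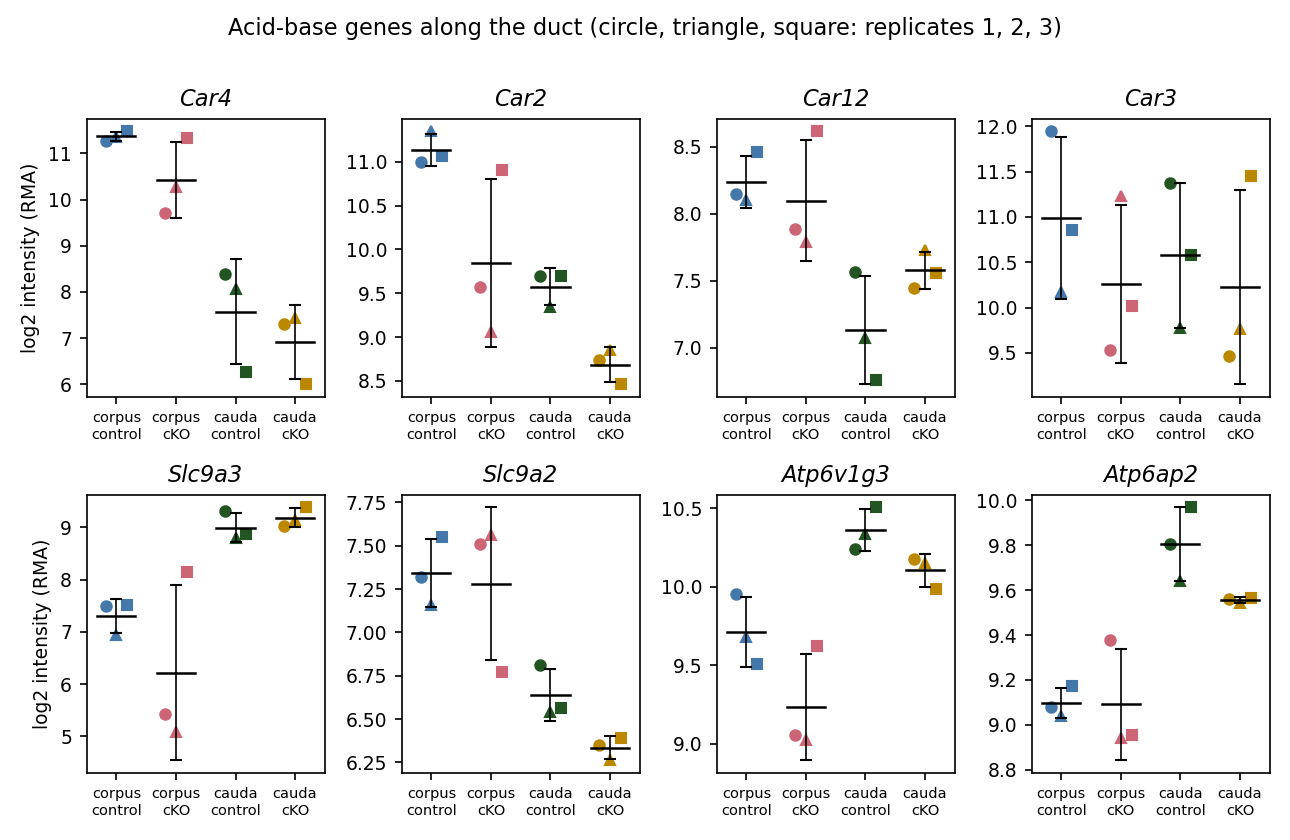
Log2 intensity (vertical axis) of 8 acid-base genes in the 4 groups, 1 point per array (circle, triangle and square are replicates 1, 2 and 3), with the mean (line) and the SD (error bar, n = 3). Car4 and Car2 are higher on every corpus array than on any cauda array of the same genotype, Slc9a3 and Atp6v1g3 are lower, and Car3 spreads widely in all groups.

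The sodium-hydrogen exchangers of the apical membrane, which trade luminal sodium for cellular protons, ran in opposite directions along the duct. Slc9a3 (NHE3) read 7.49, 6.93 and 7.51 in the control corpus and 9.32, 8.80 and 8.87 in the control cauda. All cauda arrays were higher, but the difference of 1.69 did not pass with all 12 arrays in the fit (95% interval 0.35 to 3.02, adjusted p = 0.194 from limma). In cKO mice it read 5.43, 5.09 and 8.15 in the corpus and 9.03, 9.15 and 9.39 in the cauda, a 7.82-fold rise (log2 difference 2.97, standard error 0.61, adjusted p = 0.0241 from limma). The size of this rise depended on single arrays. It was 3.93 on the log2 scale without replicate 3 of the cKO corpus (limma adjusted p = 5.48e-05) and 2.40 in the setting with the lowest value.

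Slc9a2 (NHE2) read 7.32, 7.16 and 7.55 in the control corpus and 6.81, 6.54 and 6.56 in the control cauda, a difference of -0.70 that did not pass (95% interval -1.15 to -0.26, adjusted p = 0.092 from limma). In the cKO it read 7.51, 7.56 and 6.77 in the corpus and 6.35, 6.26 and 6.39 in the cauda, and fell by 0.94 on the log2 scale (standard error 0.20, limma adjusted p = 0.0303). Its groups did not overlap in either genotype.

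Most subunits of the pump itself differed little between regions, as did most probe-sets. Of 22 subunits and accessory proteins, 19 differed by less than 0.5 on the log2 scale in control mice. This is near the share over all probe-sets, 34732 of 41345. The median difference of the 22 was 0.01. Atp6ap2, the (pro)renin receptor, which is needed to assemble the pump, read 9.08, 9.04 and 9.17 in the control corpus and 9.81, 9.64 and 9.97 in the control cauda. It was higher on all cauda arrays (log2 difference 0.71, standard error 0.14, limma adjusted p = 0.0216). In the cKO it read 9.38, 8.94 and 8.96 in the corpus and 9.56, 9.54 and 9.57 in the cauda, with no overlap and an adjusted p of 0.148 from limma (0.46, 95% interval 0.15 to 0.78).

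Several subunits come in a widely made form and in a form restricted to proton-secreting and other specialised cells. The 5 restricted forms, Atp6v1b1, Atp6v1c2, Atp6v1g3, Atp6v0a4 and Atp6v0d2, had a median difference of 0.46 in control and 0.52 in cKO mice, and the 6 widely made forms of the same subunits had medians of -0.20 and -0.18. The difference between the medians was not tested. Atp6v1g3, a stalk subunit, was the 1 restricted form that passed. In the cKO it read 9.06, 9.02 and 9.62 in the corpus and 10.18, 10.15 and 9.98 in the cauda (log2 difference 0.87, standard error 0.18, limma adjusted p = 0.0256). In control mice it read 9.95, 9.68 and 9.51 in the corpus and 10.24, 10.34 and 10.50 in the cauda, all higher, with a difference of 0.65 that did not pass (95% interval 0.25 to 1.04, adjusted p = 0.0842 from limma). The region effects of the 2 genotypes were set against each other by the test of the difference given last, which called 0 of the 32 genes.

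Among the widely made forms, the probe-sets of the stalk subunit Atp6v1g1 disagreed. Its brightest probe-set had a difference of -0.37 between control cauda and corpus (adjusted p = 0.202 from limma), and the others fell by 0.97 (adjusted p = 0.00887 from limma) and by 1.03 (adjusted p = 0.00429 from limma). On the other probe-sets every cKO array was also below the controls in the corpus (-0.55 on both, adjusted p = 0.393 and 0.358 from limma) and above them in the cauda (0.42 and 0.38, adjusted p = 0.728 and 0.761 from limma). The difference of these effects was -0.97 and -0.93 (unadjusted p = 0.00176 and 0.00133, adjusted p = 0.627 and 0.588 from limma), while the brightest probe-set, which stands for the gene in all counts given here, had a difference of -0.23 (unadjusted p = 0.251). The remaining subunits, such as the catalytic Atp6v1a with 9.51, 9.38 and 9.59 in the control corpus and 9.99, 9.78 and 9.74 in the control cauda (log2 difference 0.34, adjusted p = 0.453 from limma), did not pass in either genotype.

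Promoter windows were read to set a restricted subunit beside the catalytic subunit Atp6v1a and beside the exchanger with the widest range. Atp6v1a is in neither of the isoform lists above. RefSeq windows of GRCm38.p6, 250 bases before to 50 after the start of a gene, were given for 26 of the 35 genes. They were searched on both strands for TGTTTAC, a core read by forkhead factors such as Foxi1, for CACGTG, the E-box core, and for TCACGTGA, which contains CACGTG and lies at the heart of the element read by the lysosomal regulator TFEB. Capitals mark the matches.
Atp6v1b1: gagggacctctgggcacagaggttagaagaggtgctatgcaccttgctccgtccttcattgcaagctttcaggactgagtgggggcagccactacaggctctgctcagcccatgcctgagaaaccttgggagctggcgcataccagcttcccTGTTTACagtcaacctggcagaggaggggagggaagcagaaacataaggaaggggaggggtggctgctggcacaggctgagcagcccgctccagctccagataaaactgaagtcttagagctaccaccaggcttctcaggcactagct
Atp6v1a: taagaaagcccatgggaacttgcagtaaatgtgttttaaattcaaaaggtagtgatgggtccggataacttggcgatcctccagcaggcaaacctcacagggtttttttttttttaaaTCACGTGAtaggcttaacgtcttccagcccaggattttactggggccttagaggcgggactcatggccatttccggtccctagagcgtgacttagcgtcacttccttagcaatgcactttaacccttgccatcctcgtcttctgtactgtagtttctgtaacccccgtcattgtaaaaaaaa
Slc9a3: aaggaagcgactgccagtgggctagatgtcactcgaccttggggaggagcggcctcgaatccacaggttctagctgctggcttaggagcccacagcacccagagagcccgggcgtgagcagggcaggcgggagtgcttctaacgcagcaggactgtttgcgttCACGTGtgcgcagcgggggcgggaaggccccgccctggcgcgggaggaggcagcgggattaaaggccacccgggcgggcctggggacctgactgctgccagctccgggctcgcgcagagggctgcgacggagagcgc
The Atp6v1b1 window (chr6:83742767-83743066, plus strand) was the 1 window among these genes with TGTTTAC, which 3.65% of all 32851 windows hold. The Atp6v1a window (chr16:44139210-44139509, minus strand) holds TCACGTGA, as do those of Atp6v0d1 and Atp6v0e, and 0.974% of all windows do. The shorter CACGTG was also in the windows of Slc9a3 (chr13:74121163-74121462, plus strand) and Atp6v0b, and in 7.15% of all windows. These matches describe the letters of the windows and no binding was measured.

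The region calls other than Car4 depended on single arrays. With each of the 12 arrays left out in turn, Car4 passed every time in both genotypes, while in control mice Atp6ap2 passed 7 times, Car12 4 times and Car2 3 times, and in cKO mice Atp6v1g3, Slc9a2 and Slc9a3 passed 7 times each. The count in control mice was 1 without any 1 of the control corpus arrays or without cauda control replicate 3, 2 without cauda control replicate 1 or 2 or any cauda cKO array, and 7 without corpus cKO replicate 3, where 4.91% of all probe-sets passed. The 3 added then were Slc9a3 (adjusted p = 0.00124 from limma), Slc9a2 (adjusted p = 0.0147) and Atp6v1g3 (adjusted p = 0.0278), at the same differences as above, since that array enters this comparison only through the spread. The count in cKO mice was 1 without corpus cKO replicate 1 or any cauda cKO array, 2 when corpus cKO replicate 2 was left out and 6 when replicate 3 of that group was, where 4.03% of all probe-sets passed. In the latter fit Slc9a2 (-1.20, adjusted p = 0.00184 from limma) and Atp6v1g3 (1.07, adjusted p = 0.00428) passed beside Slc9a3 and Car4, and the restricted subunits Atp6v1b1 (1.23, adjusted p = 0.00297) and Atp6v1c2 (1.04, adjusted p = 0.00818) were added. The methods' pairwise contrasts, in which the variance of a probe-set is not moderated, called fewer. There 2 genes passed in control and 1 in cKO mice. Except without corpus cKO replicate 3, the share of all probe-sets that passed in these fits is not given beside the counts. Whether the changes in count are particular to these genes was not tested.

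Of 51 further genes of acid-base transport, 49 were measured, and in control mice 3 were higher and 3 lower in the cauda, beside 1.77% and 1.75% of all probe-sets. Slc26a7, an anion exchanger of acid-secreting epithelia, rose most, with a log2 difference of 2.49 (adjusted p = 5.22e-05 from limma), followed by the apical chloride-bicarbonate exchanger Slc26a3 (1.65) and the anion exchanger Slc4a3 (0.65). Slc4a11, a proton and ammonia transporter, fell by 1.99, the voltage-gated proton channel Hvcn1 fell by 1.39 and the mitochondrial carbonic anhydrase Car5b fell by 0.89. In cKO mice Slc26a7 (2.38), Slc26a3 (1.92), the sodium-driven exchanger Slc4a8 (1.22), Slc4a3 (0.88) and the sulfate transporter Slc26a2 (0.87) were higher and Slc4a11 was lower (-2.0).

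Other cell types also shifted between the regions. The 12 smooth muscle markers averaged 8.96 to 9.95 on corpus arrays and 10.74 to 11.23 on cauda arrays. The 11 measured of 12 clear cell markers outside the set averaged 7.28 to 7.80 in the corpus and 6.73 to 7.14 in the cauda, but they did not move as one. The ammonia channel Rhcg (-3.02) and the channel Aqp6 (-3.29) were lower in the control cauda with Rhbg (-1.08), and the other 8 did not pass. Among those 8, Kit (0.77) and Dmrt2 (0.48) were higher on every control cauda array than on any control corpus array. Insrr (-0.75) and Stap1 (-0.26) were lower on every one. The 15 measured epithelial markers averaged 9.58 to 10.47 on corpus arrays and 7.98 to 9.76 on cauda arrays. Of these markers 3 were lower in the control and 1 in the cKO cauda, beside 1.75% and 1.05% of all probe-sets. The 14 measured sperm markers averaged 6.88 to 8.15 in the control corpus and 8.80 to 9.64 in the control cauda, and none of them passed. The part of these shifts in the region results was not tested.

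The effect of Dicer1 loss upstream was asked in each region. In the corpus 0 of the 32 genes passed an adjusted p under 0.05 from limma, as did 0 of all probe-sets (0%), and the methods' pairwise contrasts called 0 as well. At an unadjusted p under 0.05, 0 were higher and 4 were lower (Car2, Atp6v1c2, Atp6v1g3 and Slc26a4), beside 4.26% and 4.09% of all probe-sets. The values were lower in the cKO mean for 28 of the 32 genes, and the median difference was -0.16, beside -0.03 over all probe-sets. For 3 genes all cKO arrays lay below all control arrays and for 0 above, beside 5.99% and 5.85% of all probe-sets.

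**Figure D3:**
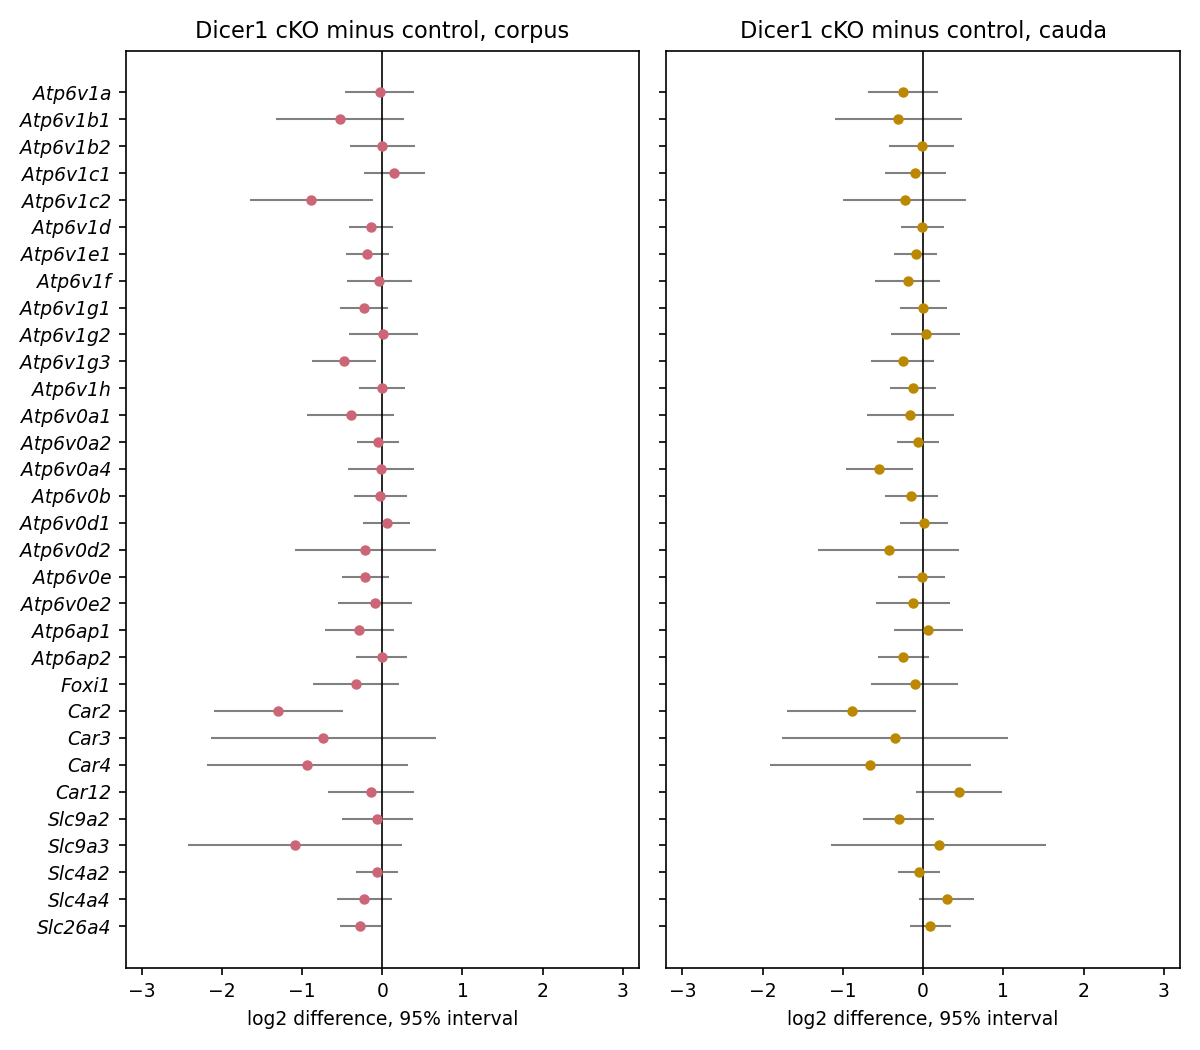
Log2 difference, cKO minus control (horizontal axis), of the 32 genes in the corpus (left) and the cauda (right), with 95% intervals from limma that are not adjusted for the number of genes. None passed an adjusted p under 0.05. Car2 had the lowest value in both regions, -1.29 in the corpus and -0.89 in the cauda.

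Car2 had the smallest p of the 32 genes in the corpus. As given above, it read 11.00 to 11.35 on control arrays and 9.57, 9.05 and 10.91 on cKO arrays, all lower, and replicates 1 and 2 were far below replicate 3. The cKO mean was 2.45-fold lower (log2 difference -1.29, standard error 0.37, 95% interval -2.10 to -0.49), with an adjusted p of 0.358 from limma. Car4 had a difference of -0.93 (95% interval -2.18 to 0.32, adjusted p = 0.729 from limma) and Slc9a3 of -1.09 (95% interval -2.43 to 0.25, adjusted p = 0.695 from limma). On replicate 3 Car4 (11.33) lay among the controls and Slc9a3 (8.15) above them.

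Atp6v1b1 and Atp6v1c2, among the restricted pump subunits, were spread in the same way in the cKO corpus. Atp6v1b1, the B1 subunit that marks clear cells, read 7.66, 7.52 and 7.97 in controls and 6.62, 6.66 and 8.29 in the cKO (log2 difference -0.53, 95% interval -1.32 to 0.27, adjusted p = 0.773 from limma). Atp6v1c2, the restricted C subunit, read 8.49, 8.92 and 8.65 in controls and 7.04, 7.52 and 8.85 in the cKO (-0.88, 95% interval -1.65 to -0.12, adjusted p = 0.512 from limma). On replicates 1 and 2 both genes were below every control array, and on replicate 3 both were within or above the controls.

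Atp6v1g3 was lower by 0.48 in the mean, with 9.06, 9.02 and 9.62 against 9.95, 9.68 and 9.51, and an adjusted p of 0.489 from limma (95% interval -0.88 to -0.08). Foxi1, the forkhead factor on which the B1 subunit of clear cells depends in mice, read 10.05, 9.52 and 10.10 in controls and 9.17, 9.32 and 10.18 in the cKO, again with replicates 1 and 2 below all controls (-0.33, 95% interval -0.87 to 0.21, adjusted p = 0.801 from limma). Atp6v0a4, the restricted membrane subunit a4, had the same order at small distances, with 6.75, 6.75 and 7.04 in controls and 6.74, 6.62 and 7.12 in the cKO (-0.02, 95% interval -0.43 to 0.40, adjusted p = 0.991 from limma). Atp6v0d2, the restricted d2 subunit, did not follow this pattern, with 8.98, 9.08 and 9.03 in controls and 9.52, 7.64 and 9.29 in the cKO, where replicates 1 and 3 were above all controls and replicate 2 far below (-0.21, 95% interval -1.09 to 0.67, adjusted p = 0.944 from limma).

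Counted by array, 21 of the 32 genes on corpus cKO replicate 1 and 24 on replicate 2 lay below all 3 corpus controls, where 33.5% and 30.1% of all probe-sets did. On replicate 3, 10 did, beside 25.7%. Of the 5 restricted subunits 4, 5 and 0 lay below all controls on replicates 1, 2 and 3, and of the 6 widely made forms 3, 3 and 2 did. These counts take no account of distance, and Atp6v0a4 on replicate 1 (6.74) lay below the lowest control (6.75) by next to nothing. The medians of cKO minus control over the restricted and the widely made forms were -0.48 and -0.02.

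Without corpus cKO replicate 3, 4 of the 32 genes passed in the corpus, all lower, where 1.17% of all probe-sets were lower and 0.909% higher. They were Slc9a3 (log2 difference -2.05, adjusted p = 0.00289 from limma), Car2 (-1.83, adjusted p = 0.00295 from limma), Atp6v1c2 (-1.41, adjusted p = 0.00518 from limma) and Atp6v1b1 (-1.08, adjusted p = 0.0122 from limma). Of the other acid-base genes, the endosomal and lysosomal chloride-proton exchangers Clcn5 (-1.08, adjusted p = 0.0112 from limma) and Clcn7 (-0.97, adjusted p = 0.0155 from limma) passed as well. The arrays that carry this difference were not set apart by any label, so the values with all 3 arrays stand as the result.

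**Figure D4:**
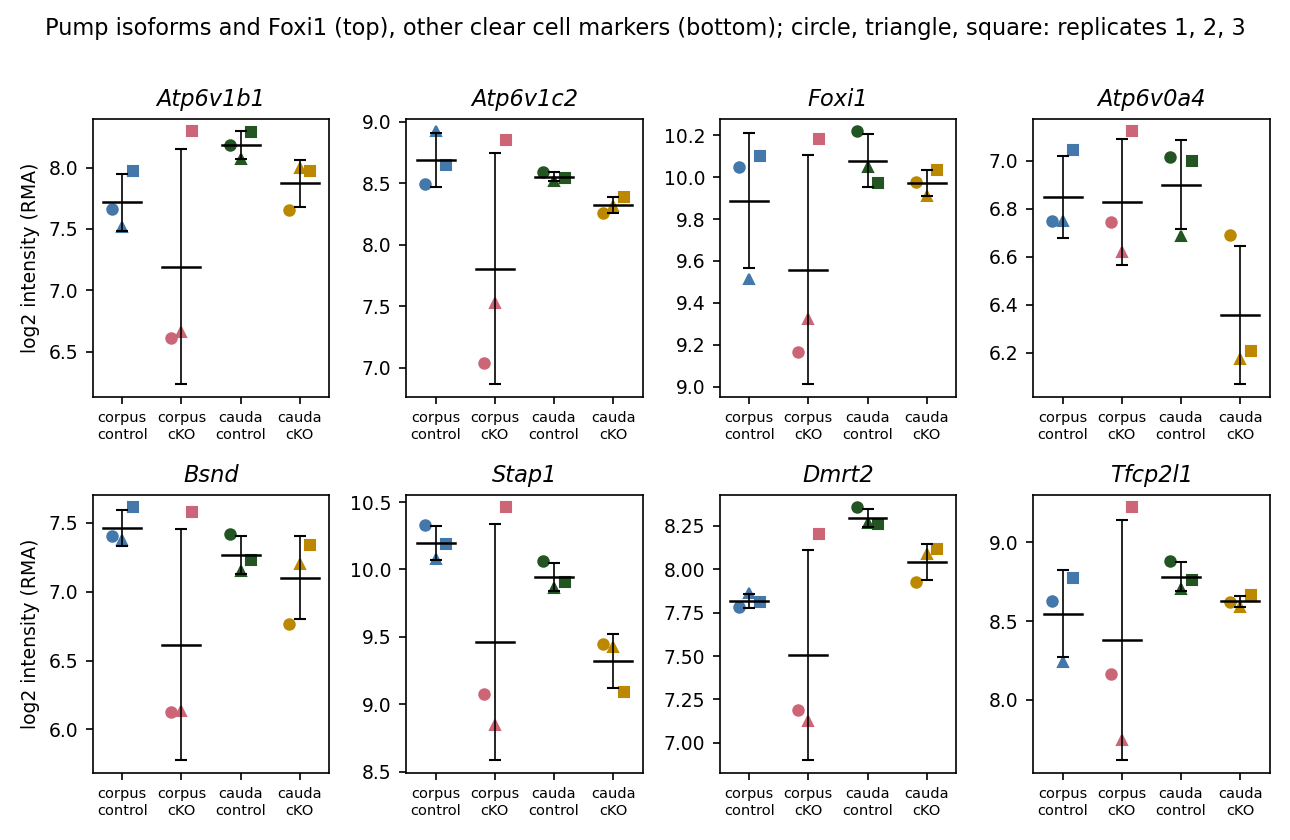
Log2 intensity (vertical axis) of 3 pump subunits and Foxi1 (top) and of 4 of the 11 clear cell markers outside the set, picked because they split in this way (bottom) in the 4 groups, 1 point per array (circle, triangle and square are replicates 1, 2 and 3), with the mean (line) and the SD (error bar, n = 3). In the cKO corpus, replicates 1 and 2 lie below the controls and replicate 3 lies near or above them, by small distances only for Atp6v0a4.

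Some clear cell markers that are not pump genes split the same arrays and others did not. Bsnd, a chloride channel subunit, read 7.40, 7.37 and 7.61 in the control corpus and 6.12, 6.14 and 7.58 in the cKO corpus. Stap1 read 10.33, 10.08 and 10.19 and then 9.08, 8.85 and 10.46, and Dmrt2, a transcription factor, read 7.78, 7.86 and 7.81 and then 7.19, 7.12 and 8.20. Without replicate 3 these 3 of the 11 markers passed, at -1.33, -1.24 and -0.66 (adjusted p = 0.00641, 0.0054 and 0.0243 from limma). Aqp6 ran the other way, with 7.94, 7.79 and 9.07 in controls and 9.50, 10.20 and 7.52 in the cKO. Rhcg (10.05, 9.18 and 7.50 in the cKO) and Rhbg (8.53, 9.09 and 8.19) were also lowest on replicate 3, which lay below all controls, and their differences without it were 0.16 and 0.31. Of the remaining markers Oxgr1 had a difference of 0.06 without replicate 3, and Tfcp2l1 (-0.59), Hepacam2 (-0.91), Insrr (-0.57) and Kit (-0.19) were negative and did not pass.

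Genes of other cells differed on these arrays too. The 9 measured of 10 macrophage and lymphocyte markers averaged 9.81 on corpus cKO replicate 1 and 8.70 on replicate 2, beside 7.87 to 8.35 on the controls and 8.34 on replicate 3, and Cd68 reached 11.74 on replicate 1. The 14 measured of 15 sperm markers averaged 8.60, 7.28 and 5.67 on corpus cKO replicates 1, 2 and 3 and 6.88 to 8.15 on the controls. The corpus gene Pate3 read 11.97, 12.22 and 12.55 in controls and 8.87, 8.73 and 12.05 in the cKO, so that it split as Slc9a3 and Atp6v1b1 did. Spint5 and Hoxc9, also higher in the corpus than in the cauda, did not split in this way. In the corpus Spint5 read 12.08, 12.16 and 12.15 in controls and 12.03, 12.62 and 11.56 in the cKO. Hoxc9 read 6.90, 6.91 and 7.02 and then 7.14, 6.99 and 7.24. The part of these shifts in the acid-base results was not tested.

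In the cauda 0 of the 32 genes passed (0% of all probe-sets) and the methods' pairwise contrasts called 0. At an unadjusted p under 0.05, 0 were higher and 2 lower (Car2 and Atp6v0a4), beside 1.83% and 3.83% of all probe-sets. All cKO arrays lay below all control arrays for 8 genes and above them for 0, beside 5.65% and 5.13% of all probe-sets. The 8 were Atp6v1a, Atp6v1b1, Atp6v1c2, Atp6v1g3, Atp6v0b, Atp6ap2, Car2 and Slc9a2. The median difference was -0.11, beside 0.02 over all probe-sets, and 24 of the 32 differences were negative.

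Car2 had the largest difference of the 32 genes in the cauda too. It read 9.69, 9.34 and 9.70 in controls and 8.74, 8.86 and 8.46 in the cKO, 1.85-fold lower in the mean (log2 difference -0.89, standard error 0.37, 95% interval -1.69 to -0.09, adjusted p = 0.773 from limma). Atp6v0a4 read 7.02, 6.69 and 7.0 in controls and 6.69, 6.17 and 6.21 in the cKO (-0.54, 95% interval -0.96 to -0.13, adjusted p = 0.571 from limma). The control and cKO arrays overlapped for Atp6v0a4 and did not for Car2. Next in order of p came Slc4a4 and Car12, whose means were higher in the cKO with overlapping arrays, by 0.30 (95% interval -0.05 to 0.64, adjusted p = 0.991 from limma) and by 0.45 (95% interval -0.09 to 0.99, limma adjusted p = 1.00).

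Atp6v1b1 read 8.18, 8.07 and 8.29 in controls and 7.65, 7.99 and 7.97 in the cKO cauda (-0.31, 95% interval -1.10 to 0.49). Atp6v1c2 read 8.59, 8.52 and 8.54 and then 8.26, 8.31 and 8.39 (-0.23, 95% interval -1.0 to 0.53), and Foxi1 read 10.22, 10.05 and 9.97 and then 9.97, 9.91 and 10.03 (-0.11, 95% interval -0.64 to 0.43). In contrast to the corpus, the 3 cKO arrays of each gene lay close together. Of the 5 restricted subunits 3, 4 and 5 lay below all cauda controls on cKO replicates 1, 2 and 3, where 20.1%, 21.6% and 22.3% of all probe-sets did. Sperm markers were lower in the cKO cauda, with list means of 6.07 to 6.84 against 8.80 to 9.64, and their part in these small differences was not tested.

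The bicarbonate and anion transporters gave no call. Slc4a4, the sodium-bicarbonate cotransporter of the basolateral membrane, read 6.88, 6.85 and 7.15 in the control corpus, 6.71, 6.60 and 6.89 in the cKO corpus, 7.26, 6.99 and 6.91 in the control cauda and 7.17, 7.56 and 7.32 in the cKO cauda. Its largest difference was that between the cKO regions, where all cauda arrays were higher (0.61, 95% interval 0.27 to 0.96, adjusted p = 0.0682 from limma). Slc26a4 (pendrin), an apical exchanger of chloride for bicarbonate that depends on Foxi1 in the inner ear and kidney of mice, lay between 3.40 and 3.84 on all 12 arrays, below the median of each array. In the corpus it read 3.66, 3.84 and 3.74 in controls and 3.40, 3.60 and 3.40 in the cKO, all lower (-0.27, 95% interval -0.53 to -0.02, adjusted p = 0.547 from limma). Slc4a2, the basolateral anion exchanger AE2, had differences between -0.23 and -0.05 in the 4 comparisons, and none passed.

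The effect of the cKO in the corpus was also set against that in the cauda. The difference of the effects called 0 of the 32 genes from limma (0% of all probe-sets) and 0 by the methods' pairwise contrasts, and at an unadjusted p under 0.05 it picked 2, Slc4a4 (-0.52, 95% interval -1.0 to -0.04) and Slc26a4 (-0.37, 95% interval -0.73 to -0.01), beside 6.5% of all probe-sets. The median difference of the effects was -0.11. Without corpus cKO replicate 3 it called Slc9a3 (-2.24, adjusted p = 0.0234 from limma), beside 0.365% of all probe-sets.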

How the data were processed

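The deposited values are log2 intensities of 41345 probe-sets that the authors obtained with robust multi-array averaging (RMA) in Partek Genomics Suite 6.5, and they were used as they are. The sample labels describe the labelling for miRNA arrays, whereas the methods name Mouse Gene 2.0 ST for corpus and cauda, which the probe-set identifiers bear out. Probe-sets were named from the platform annotation.

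The means of the 4 groups were fitted to all 12 arrays in limma 3.58.1 (R 4.3.3), with two-sided tests and Benjamini-Hochberg adjustment over all probe-sets, and the step was checked on simulated data. Intervals are 95% intervals per gene. An exact permutation test of 1 value has a smallest p of 0.1 in this design. The number of arrays limits the precision.

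The members and gene lists were chosen with earlier results of these data known. Described in full were genes with an adjusted p under 0.05 in a comparison, the 4 with the smallest p for the cKO in each region, the 2 for the difference of effects, and Foxi1, Atp6v1b1, Atp6v0a4, Car2, Slc9a3 and Slc26a4. Car3, Atp6v0d2, Atp6v1a, Atp6v1g1 and Slc4a2 were added after their values were seen. Alternatives were each probe-set's own variance, the upper 60% of probe-sets by intensity, quantile normalization, centring on array medians, only the 6 arrays compared, replicate blocks (statmod 1.5.0), the second brightest probe-set and leaving out each array. Levels were not compared between probe-sets.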

Additional observations from a re-analysis of the deposited data

How the results depend on the processing

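The median differences and the counts of genes passing kept within the spread between replicates or within 1.5 times of the reported value under most settings, and no named gene that passed changed direction. For cauda against corpus in control mice, 4 genes passed as reported, 2 with each probe-set's own variance and 2 with a fixed replicate block. In cKO mice 4 passed as reported, 1 with each probe-set's own variance, 1 in a fit of only the 6 arrays compared and 2 with a fixed replicate block. With each array left out in turn, the counts ran from 1 to 7 in control mice and from 1 to 6 in cKO mice between regions, from 0 to 4 for the cKO in the corpus, stayed at 0 for the cKO in the cauda, and ran from 0 to 1 for the difference of the effects. The medians then ran from -0.15 to -0.04, -0.13 to -0.0047, -0.24 to -0.12, -0.17 to -0.05 and -0.17 to -0.04 in the same order. The shares of all probe-sets that passed under most of these settings are not given here. The cause of the lost calls was not tested.

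Same-numbered arrays of different groups were compared to see whether the numbers pair samples. The correlation of their deviations from the group means ran from -0.10 to 0.21 over 18 pairs and was above 0.1 in 3. In 14 of the 18 pairs it was highest for the own number out of 3 numbers. These values do not settle whether the numbers pair samples, and the reported fit leaves the numbers out. With a fixed replicate block 2 genes passed between regions in each genotype, as given above. A random replicate block left the counts at 4, 4, 0, 0 and 0. With 3 arrays a group, intervals of the more variable genes spanned 2 log2 units or more, so that differences of 1.5-fold could not be told from 0 for Car4, Car3 or Slc9a3.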
